A study of Zea mays with 12 samples.

Results

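ald1 is the maize (Zea mays) gene for the cytoplasmic isozyme of fructose-bisphosphate aldolase. It was described across RNA-seq libraries of embryos from seeds imbibed at a normal or a low temperature. It is 1 of 99 genes in the expression table used here and 1 of the 76 that passed the filter on low values, and it was selected on its own measured levels, because earlier results of these data showed it lower at 10 °C in both lines. Its difference between temperatures is therefore given as a description, without a test, and tests are reported only for the difference between the lines, which the choice did not use. Embryos of 2 inbred lines were sampled after the seeds had taken up water for 2 h in germination paper. Per the labels, B73 is the line that resists low temperature and Mo17 the one that is sensitive to it. B73 at 25 °C, B73 at 10 °C, Mo17 at 25 °C and Mo17 at 10 °C each gave 3 biological replicates, 12 libraries in all.

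Fructose-bisphosphate aldolase splits fructose 1,6-bisphosphate into a pair of triose phosphates in glycolysis and joins them again in gluconeogenesis. The cytoplasmic enzyme serves sucrose breakdown, while plants hold separate plastid isozymes for the Calvin cycle. In maize, cytoplasmic aldolase is one of the anaerobic polypeptides, the small set of proteins, alcohol dehydrogenase among them, that seedlings keep making when oxygen is short. A mature dry embryo holds stored mRNA, and the RNA of an embryo early in imbibition includes such stored molecules. In the table ald1 lies on chromosome 3 at 168340693 to 168343022 on the plus strand (B73 RefGen_v4), a span of 2330 bases. It is labelled with glycolysis and gluconeogenesis, the pentose phosphate pathway, fructose and mannose metabolism, and carbon fixation. The RefSeq gene table of another B73 assembly lists a gene with the synonym aldolase2 on chromosome 8. That gene was not analysed here, and whether reads were shared between it and ald1 was not tested.

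The libraries were close in depth. Relative depth, taken from how each library's counts compare with its FPKM (fragments per kilobase of gene, scaled to sequencing depth), ran from 0.817 to 1.08, and absolute depth is unknown. The deposited ald1 counts ran from 14459 to 81075. B73 10 °C replicate 1 stood apart from its group over the 76 genes, with a Pearson r of 0.969 and 0.974 against its replicates, which reached 0.997 with each other (on the log2(FPKM + 1) scale; the points are genes, not independent replicates). Of the genes fixed as tissue markers, the small subunit of ADP-glucose pyrophosphorylase named for the embryo, Agpsemzm, stood at 92.9 to 149 FPKM over the libraries. ae1, a starch branching enzyme gene of the endosperm, was listed at 0 in all 12 libraries, while the entry ae1_1 stood at 0.33 to 0.70 FPKM in B73 and 2.3 to 4.36 FPKM in Mo17. The anthocyanin gene a2 reached at most 0.06 FPKM, and other embryo markers such as globulins and oleosins were not analysed here. The meiosis gene am1 was at 0 to 0.22 FPKM in the B73 libraries and at 5.28 to 9.38 FPKM in those of Mo17. The other meiosis gene among the markers, afd1, did not share this contrast. It stood at 1.65 to 5.6 FPKM in B73 and 2.7 to 3.87 FPKM in Mo17, and was not called between the lines at either temperature. The part of ae1_1 and am1 in the ald1 line difference was not tested.

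The first question was how abundant ald1 mRNA was in each line and at each temperature. In B73 at 25 °C the libraries gave 223.5, 255.1 and 257 FPKM for replicates 1, 2 and 3. In B73 at 10 °C they gave 118.2, 146.1 and 92.9 FPKM. Every B73 library at 10 °C thus lay below every one at 25 °C, and the gap between the groups was wider than the range within either. In Mo17 at 25 °C the libraries gave 295.8, 421.6 and 563.8 FPKM, and in Mo17 at 10 °C 234.2, 236.8 and 298.3 FPKM. The Mo17 groups met at their edges, since replicate 1 at 25 °C and replicate 3 at 10 °C had nearly the same level, and 8 of the 9 pairs of a 25 °C and a 10 °C library had the higher value at 25 °C. In bulk embryos, fewer cells that hold ald1 mRNA and less of it per cell cannot be told apart.

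**Figure D1:**
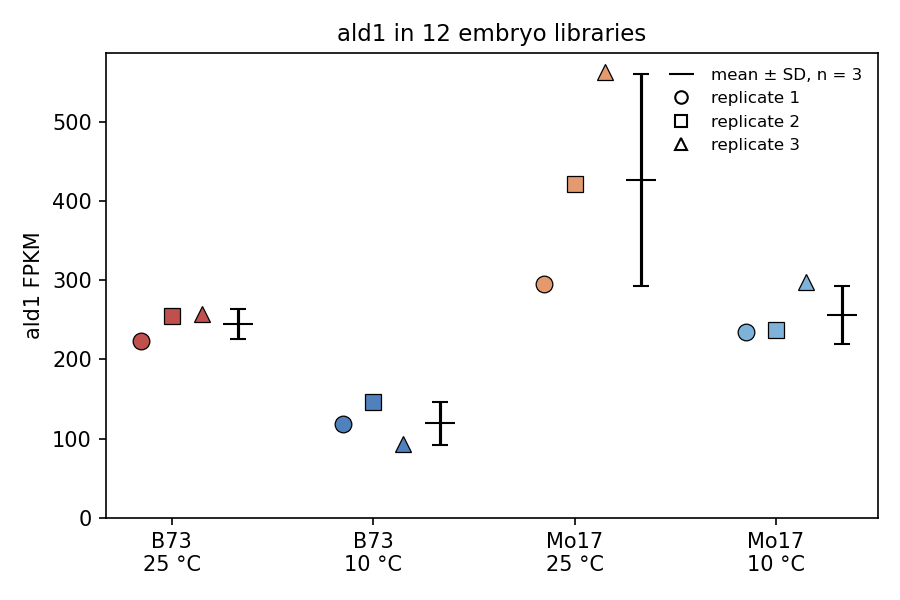
FPKM of ald1 (y axis) in each of 12 embryo libraries, by line and temperature (x axis), with the mean and SD of 3 replicates beside the points. B73 at 10 °C is lowest (92.9 to 146.1), B73 at 25 °C and Mo17 at 10 °C share a range (223.5 to 298.3), and Mo17 at 25 °C is highest and most spread (295.8 to 563.8).

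By their means the 4 groups fell into 3 levels, although the libraries of Mo17 at 10 °C and Mo17 at 25 °C also met at their edges. The lowest was B73 at 10 °C, at 119.1 ± 26.6 FPKM (mean ± SD, n = 3, as for each group here). B73 at 25 °C, at 245.2 ± 18.8 FPKM, and Mo17 at 10 °C, at 256.4 ± 36.3 FPKM, were neighbours whose libraries overlapped. Between this pair the fitted log2 difference was 0.06 with a 95% interval of -0.42 to 0.55, so the level of ald1 in cold Mo17 embryos was not told apart from that in warm B73 embryos. The highest group was Mo17 at 25 °C, at 427.1 ± 134.1 FPKM. Among the 99 genes of the table, ald1 ranked 5 to 6 by FPKM in B73 at 25 °C and 10 to 16 in B73 at 10 °C. It ranked 4 to 7 in Mo17 at 25 °C and 7 to 9 in Mo17 at 10 °C. ald1 was thus among the abundant transcripts of this table in every library, and its rank, which needs no scaling of libraries, was nearer the top at 25 °C in both lines, although in Mo17 a library of each temperature had rank 7.

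In B73 the mean ald1 level at 10 °C was 48.6% of that at 25 °C, and the 3 cold libraries stood at 48.2%, 59.6% and 37.9% of the warm mean. The fitted log2 difference was -1.04, with a standard error of 0.22 and a 95% interval of -1.53 to -0.55. Without B73 10 °C replicate 1, the library that stood apart, it was also -1.04. In Mo17 the mean at 10 °C was 60.0% of that at 25 °C, with the cold libraries at 54.8%, 55.4% and 69.8% of the warm mean. The fitted log2 difference was -0.74 with a standard error of 0.22 and a 95% interval of -1.22 to -0.25. It depended on Mo17 25 °C replicate 3, the library with the most ald1, and was -0.48 without it. With upper-quartile scaling it was -0.40, while the median of the 76 genes moved from -0.02 to 0.29, so that relative to this median ald1 stood at -0.71 and -0.69. A factor moves all genes of a library alike, so the values relative to the median stay close by construction.

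Read against the other genes, ald1 had the second lowest cold difference of the 76 in B73, after adh2 at -1.41, and the fifth lowest in Mo17. Libraries at 10 °C lay below those at 25 °C without overlap in 11.8% of the 76 genes in B73, ald1 among them, and in 19.7% in Mo17, where ald1 was not among them; they did so in both lines in 5.26%. The choice of ald1 used these differences, so nothing is read from its place in them. adh1, ald1 and aprl6, annotated to protein disulfide isomerase activity and as an adenosine phosphosulfate reductase, were the 3 genes of 76 at a log2 difference of -0.5 or lower in both lines, a limit set after the values were seen. The cold difference in Mo17 minus that in B73 was 0.31 on the log2 scale for ald1, with a standard error of 0.31 and a 95% interval of -0.38 to 0.99. It was 0.73 ± 0.26 (SE) under quantile normalization and 0.59 ± 0.26 (SE) with upper-quartile factors. With 1 library left out it ran from 0.10, without Mo17 25 °C replicate 1, to 0.56, without replicate 3 of that group, so its size was not settled by these libraries.

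The spread of ald1 between replicates was uneven. Its coefficient of variation was 7.68% in B73 at 25 °C, 22.4% in B73 at 10 °C, 31.4% in Mo17 at 25 °C and 14.1% in Mo17 at 10 °C. The median over the 76 genes was 10.8% in B73 at 25 °C, 14.7% in B73 at 10 °C, 11.1% in Mo17 at 25 °C and 10.7% in Mo17 at 10 °C. The Mo17 25 °C group was thus the one in which ald1 varied far more than most genes, with 7 of 76 genes above it. There, replicate 3 held 1.91 times the ald1 FPKM of replicate 1, where the median gene had a ratio of 0.99. Of the other 75 genes, 11 (14.7%) had replicate 1 lowest and replicate 3 highest in this group, as ald1 had. The relative depths of these libraries, 1.04 in replicate 1 and 0.99 in replicate 3, differed little.

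The next question was whether the lines differ in ald1. At 25 °C ald1 was higher in Mo17 than in B73, with a log2 difference of 0.80 ± 0.22 (SE) and a 95% interval of 0.31 to 1.29, a 1.74-fold difference (adjusted p = 0.00761, edgeR quasi-likelihood), but this turned to -0.04 under quantile normalization. All 3 Mo17 libraries lay above all 3 of B73, as in 40.8% of the 76 genes. At 10 °C ald1 was 2.15-fold higher in Mo17, with a log2 difference of 1.11 ± 0.22 (SE) and a 95% interval of 0.62 to 1.60 (adjusted p = 0.00117, edgeR quasi-likelihood), again in 3 of 3 libraries without overlap, as in 35.5% of genes. Line differences were common in this table. At 25 °C 61.8% of the 76 genes were called, 36.8% as higher in Mo17 and 25% as lower. At 10 °C it was 64.5%, with 36.8% called higher and 27.6% lower, so the call itself does not set ald1 apart. By size ald1 ranked 24 from the highest at 25 °C and 14 at 10 °C.

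The size of the 25 °C difference rested on the scaling of the libraries. With upper-quartile factors it was 0.42 and missed the threshold (adjusted p = 0.0552 by edgeR, the alternatives giving 0.000541 to 0.878). Those factors moved the median of the 76 genes from 0.17 to -0.18, TMM factors to -0.09 and quantile normalization to -0.09. Relative to the median gene, ald1 stood at 0.63 as reported, 0.64 with TMM, 0.63 with median-ratio and 0.60 with upper-quartile factors, but at 0.06 with quantile normalization. A factor moves all genes of a library alike, so the values as reported and under the factors are close by construction. They are not separate support for the difference. Quantile normalization gives genes of equal rank equal values, and the ranks of ald1 at 25 °C overlapped between the lines. The part of these ranks in the lower value under quantile normalization was not tested. The ratio of ald1 to another gene within a library does not depend on scaling, and its mean log2 value was higher in Mo17 for 51 of 74 genes at 25 °C and for 61 of 74 at 10 °C. These counts restate the rank of ald1 by size of line difference and are not separate support. Without overlap of libraries, the ratio was higher in Mo17 for 35 genes and lower for 9 at 25 °C. At 10 °C it was higher for 47 and lower for 6. The spread in Mo17 at 25 °C also entered the estimate, which was 0.55 without Mo17 25 °C replicate 3 and 1.01 without replicate 1, and stayed past the threshold with any 1 library left out.

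**Figure D2:**
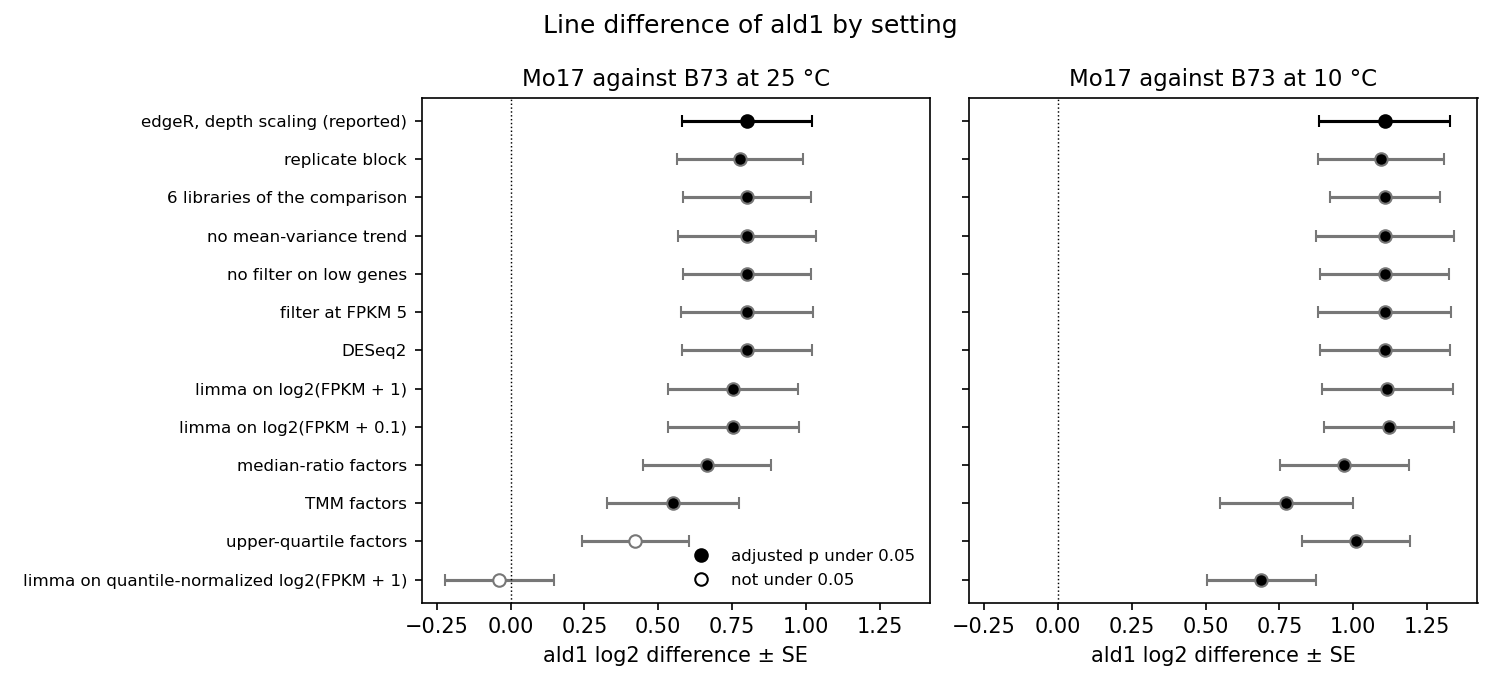
Log2 difference of ald1 between Mo17 and B73 (x axis, ± SE) at 25 °C and 10 °C under the reported fit and 12 alternatives (y axis); filled points have an adjusted p under 0.05. At 25 °C the values run from 0.80 down to 0.42 with upper-quartile factors and -0.04 with quantile normalization, both unfilled, while all points at 10 °C are filled and lie between 0.69 and 1.12.

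Averaged over temperatures, ald1 was higher in Mo17 at a log2 difference of 0.95 ± 0.16 (SE; adjusted p = 0.000194, edgeR quasi-likelihood), and the call held under all alternatives, although the difference was 0.66 with TMM factors and 0.33 under quantile normalization (adjusted p = 0.0468, limma). On this average 68.4% of the 76 genes were called, and 38.2% were called higher in Mo17. An exact permutation test on ald1 alone, 2-sided, exchanging the lines within each temperature over 400 relabellings, gave p = 0.005, the smallest p that it can give, at a mean log2 difference of 0.94 in normalized counts. The same permutation test gave p = 0.015 with TMM factors, at 0.64. The table's genome build is that of B73, per the submitters' processing notes, for libraries of both lines, and the sources used here do not say how Mo17 reads that differ from it were handled.

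Of the other genes that the table labels with glycolysis and gluconeogenesis, all 5 passed the filter: acpt1, adh1, adh2, aldh2 and AR3. They stand at different points around aldolase. acpt1 carries the EC number of phosphofructokinase, the enzyme that makes the substrate of aldolase, although its symbol refers to an acyl carrier protein. adh1 and adh2 are alcohol dehydrogenases, which end the fermentation that follows glycolysis when oxygen is short. aldh2 is a mitochondrial aldehyde dehydrogenase, which oxidizes aldehydes to acids, and AR3, which had the highest FPKM of the table in every library, carries the EC number of an NADP-dependent alcohol dehydrogenase. With the cold, none of the 5 was called in either line by the edgeR test, 2 of 5 in B73 and 3 of 5 in Mo17 had an unadjusted p under 0.05, DESeq2 called 1 lower in each line, adh1, and limma on log2(FPKM + 1) called 0. adh1 was also called lower in B73 with a replicate block, and aldh2 in Mo17 under quantile normalization. Over all 76 genes, 8 in B73 and 17 in Mo17 had an unadjusted p under 0.05, and DESeq2 called 2 and 7 lower. In Mo17 the 3 of 5 became 1 with median-ratio and 0 with upper-quartile factors. The percentage of all 76 genes called lower at 10 °C by edgeR was 1.32 in B73 and 2.63 in Mo17. The 76 genes take in ald1, which was chosen on these contrasts and is not among the 5. Nothing is therefore read about ald1 from these counts over all genes. The median cold difference of the 5 genes was -0.54 in B73 and -0.44 in Mo17, beside -0.05 and -0.02 over all genes tested. With upper-quartile factors the Mo17 median was -0.12, beside 0.29 over all genes. Under quantile normalization the median of the 5 was 0 in Mo17, beside 0.04 over all genes, and -0.56 in B73, beside 0.

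adh1 had the cold differences nearest to those of ald1 in this list, at a log2 difference of -0.87 ± 0.21 (SE) in B73 and -0.63 ± 0.21 (SE) in Mo17, where quantile normalization set it to 0. aldh2 had -0.54 ± 0.19 (SE) in B73 and -0.48 ± 0.20 (SE) in Mo17. acpt1 had -0.03 ± 0.18 (SE) in B73 and -0.44 ± 0.18 (SE) in Mo17. AR3 stood at 0.23 ± 0.13 (SE) in B73 and -0.19 ± 0.13 (SE) in Mo17. adh2 was too low in B73 for a firm value, at 1.37 ± 0.19 FPKM at 25 °C and 0.51 ± 0.18 FPKM at 10 °C (mean ± SD, n = 3 each). In Mo17 adh2 stood at 32.4 ± 22.8 FPKM at 25 °C and 34.0 ± 15.8 FPKM at 10 °C (mean ± SD, n = 3 each). Its log2 difference with the cold there was 0.07 ± 0.60 (SE), so no decrease of adh2 was seen in Mo17.

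Between the lines, 4 of these 5 genes were called higher in Mo17 and 1, aldh2, lower, at both temperatures. Of all 76 genes, 36.8% were called higher at each temperature, and 25% were called lower at 25 °C and 27.6% at 10 °C. The median log2 difference of the 5 was 2.09 at 25 °C and 2.13 at 10 °C, beside 0.17 and 0.06 over all genes tested, and all but aldh2 exceeded the 0.80 of ald1 at 25 °C. Under quantile normalization adh1 and AR3 went to 0 at 25 °C and AR3 at 10 °C, and these calls were lost.

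**Figure D3:**
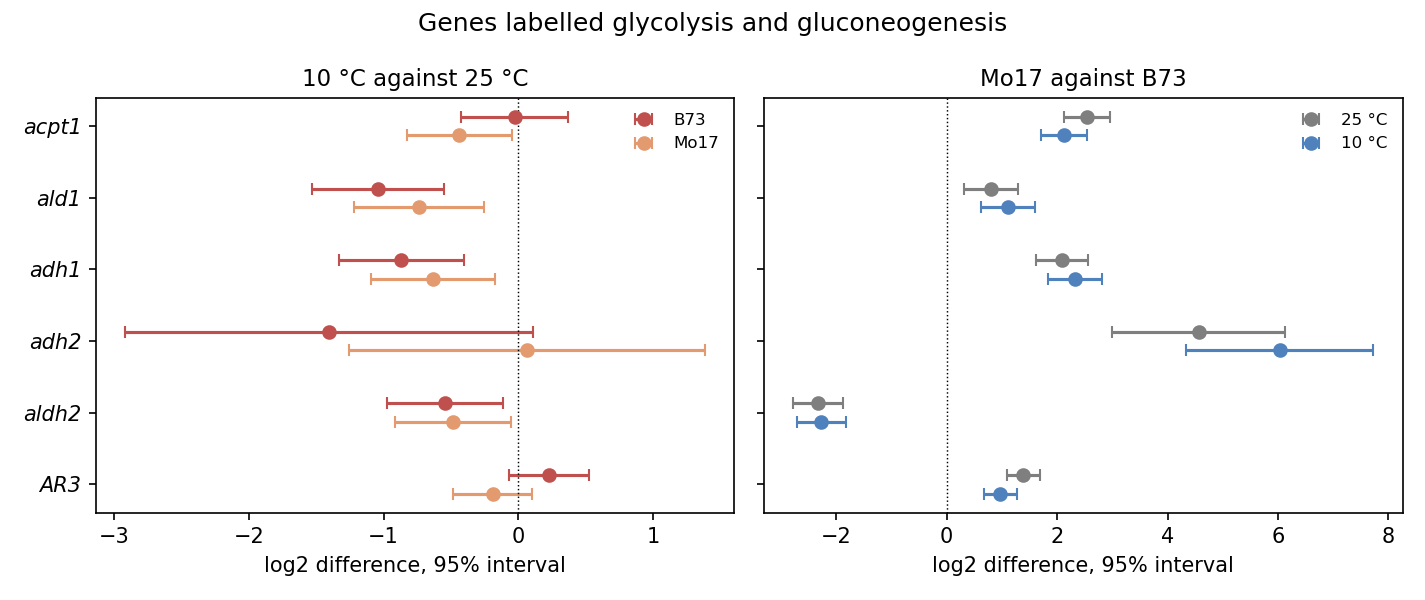
Log2 differences with 95% intervals (x axes) for the 6 genes labelled with glycolysis and gluconeogenesis (y axis), at 10 °C against 25 °C in each line and in Mo17 against B73 at each temperature. The intervals of ald1, adh1 and aldh2 lie below 0 for the cold in both lines (at -1.04 and -0.74, -0.87 and -0.63, and -0.54 and -0.48), and in the line panel aldh2 alone lies below 0 (-2.33 and -2.27), with ald1 the smallest of the others at 25 °C (0.80).

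The level of ald1 relative to adh1 was followed within each library, where scaling cancels. In B73 at 25 °C ald1 had 0.54, 0.51 and 0.52 times the FPKM of adh1 in replicates 1, 2 and 3, and in B73 at 10 °C 0.50, 0.55 and 0.34 times. In Mo17 at 25 °C the ratio was 0.16, 0.22 and 0.25, and in Mo17 at 10 °C 0.27, 0.13 and 0.25. The ratio thus overlapped between temperatures in both lines and was lower in every Mo17 library than in every B73 library. Its means were 0.52 ± 0.02 in B73 at 25 °C, 0.46 ± 0.11 in B73 at 10 °C, 0.21 ± 0.04 in Mo17 at 25 °C and 0.22 ± 0.07 in Mo17 at 10 °C (SD, n = 3 each). Both lines held more adh1 than ald1 per length of gene, and Mo17 held it in larger excess. adh1 was singled out with its values known, so the ratio was not tested.

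**Figure D4:**
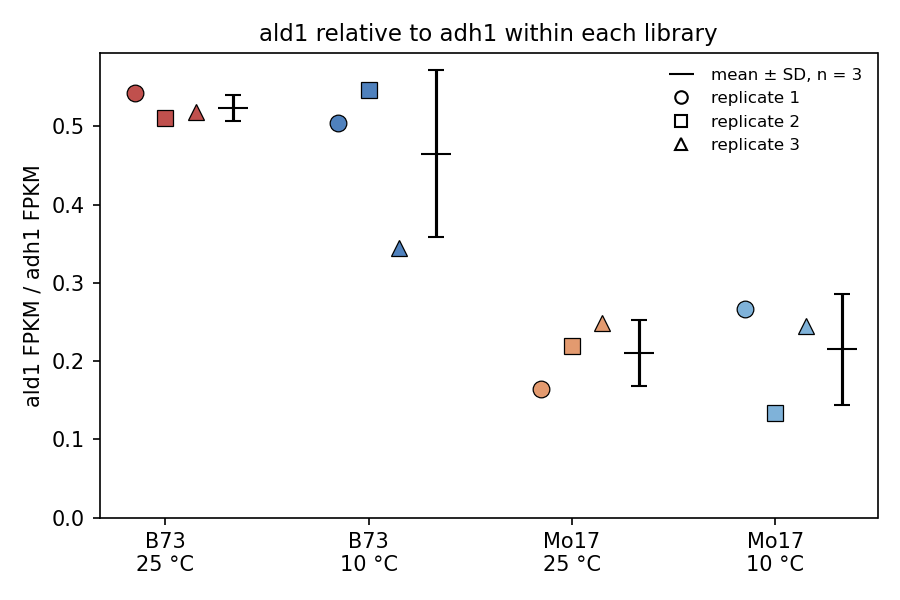
Ratio of ald1 FPKM to adh1 FPKM within each library (y axis), by line and temperature (x axis), with the mean and SD of 3 replicates beside the points. The B73 libraries lie between 0.34 and 0.55 and the Mo17 libraries between 0.13 and 0.27, with overlap between temperatures in each line.

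The other lists gave little with temperature. acpt1 was also the only other gene of the table labelled with the pentose phosphate pathway and with fructose and mannose metabolism, and no other gene was labelled with carbon fixation. Of the anaerobic polypeptides, adh1 and adh2 were in the table beside ald1. The list of alcohol and aldehyde dehydrogenases added aldh5, which was higher in Mo17 at a log2 difference of 1.59 ± 0.40 (SE) at 25 °C. The list of low-oxygen and energy-stress genes gave 2 higher (aox1, an alternative oxidase, and akin1) and 1 lower (aox1_1) in Mo17 at each temperature. Its member aox3 did not pass the filter. Of all 76 genes, 36.8% were called higher in Mo17 at each temperature, and 25% were called lower at 25 °C and 27.6% at 10 °C. The symbol akin1 refers to a kinase subunit related to the energy sensor SnRK1, but the gene carries the EC number of a tRNA ligase. Of the adenylate genes, ANT1, a mitochondrial ADP/ATP carrier, was higher and adk1, an adenylate kinase, lower at each temperature, and ANT2 was not called. Under quantile normalization the calls of aldh5 and ANT1 were lost at both temperatures. The call of akin1 was lost with TMM, median-ratio and upper-quartile factors, and at 25 °C its difference turned from 0.26 to -0.09 with the last of these. Over all lists, none of the 12 other genes was called with the cold by the edgeR test. In that test 2 of them in B73 and 3 in Mo17 had an unadjusted p under 0.05. Over all 76 genes, a set that takes in ald1, it was 8 and 17. DESeq2 called 1 of the 12 in each line and limma on log2(FPKM + 1) called 0.

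The genes most like ald1 in pattern were taken as those with the smallest root mean square difference from it in log2(FPKM + 1) over the 12 libraries, each gene centred on its own mean. They were aprl6 at 0.35, AN110 (an AN1-type zinc finger protein) at 0.39, amyb5 (a beta-amylase) at 0.46, AI665421 (uncharacterized) at 0.47 and a2_1 (annotated to glycosyl transfer) at 0.48, where the median gene differed by 0.72 and ald1 itself varied by 0.69 around its mean. aprl6 was called higher in Mo17 at both temperatures, and its cold difference was not called in either line. Its FPKM was 1.71 ± 0.33 in B73 at 25 °C, 1.16 ± 0.21 in B73 at 10 °C, 3.90 ± 0.53 in Mo17 at 25 °C and 2.36 ± 0.18 in Mo17 at 10 °C (mean ± SD, n = 3 each), a far lower level than that of ald1. amyb5 was lower still in B73, with means of 0.27 FPKM at 25 °C and 0.29 FPKM at 10 °C. Its fitted log2 difference between the lines was 2.28 at 25 °C and 1.39 at 10 °C. With the cold it was 0.10 in B73, against -1.04 for ald1, and -0.79 in Mo17, near that of ald1. a2_1 was higher in Mo17 at 25 °C, at 0.68, but not at 10 °C, at -0.004. Nearness on this scale is thus not likeness in every fitted difference. With values centred within each line, which leaves the line difference out, the nearest genes were arf1 (an ADP-ribosylation factor of vesicle transport) at 0.29, adh1 at 0.30, aprl6 at 0.34, aldh2 at 0.34 and a2_1 at 0.36, with a median gene at 0.52 and ald1 itself at 0.51. All of these had lower means at 10 °C in both lines, and the points share their libraries, so these likenesses are descriptions.

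arf1 and a2_1 were the 2 genes of the table called lower with the cold in Mo17, at a log2 difference of -0.73 ± 0.14 (SE; adjusted p = 0.0168) and -0.94 ± 0.20 (SE; adjusted p = 0.0257) by edgeR. These calls rest on few libraries. No gene was called lower in Mo17 without Mo17 25 °C replicate 2 or 3, without Mo17 10 °C replicate 1 or 3, or in a fit of the 6 Mo17 libraries, while DESeq2 called 7 and limma on log2(FPKM + 1) called 3. In B73 their differences were -0.40 ± 0.13 (SE) and -0.26 ± 0.20 (SE), smaller than the -1.04 of ald1. In line terms arf1 did not follow ald1, at 0.29 ± 0.13 (SE) at 25 °C and -0.04 ± 0.13 (SE) at 10 °C, neither of them called. The profile plot gives the values by library.

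**Figure D5:**
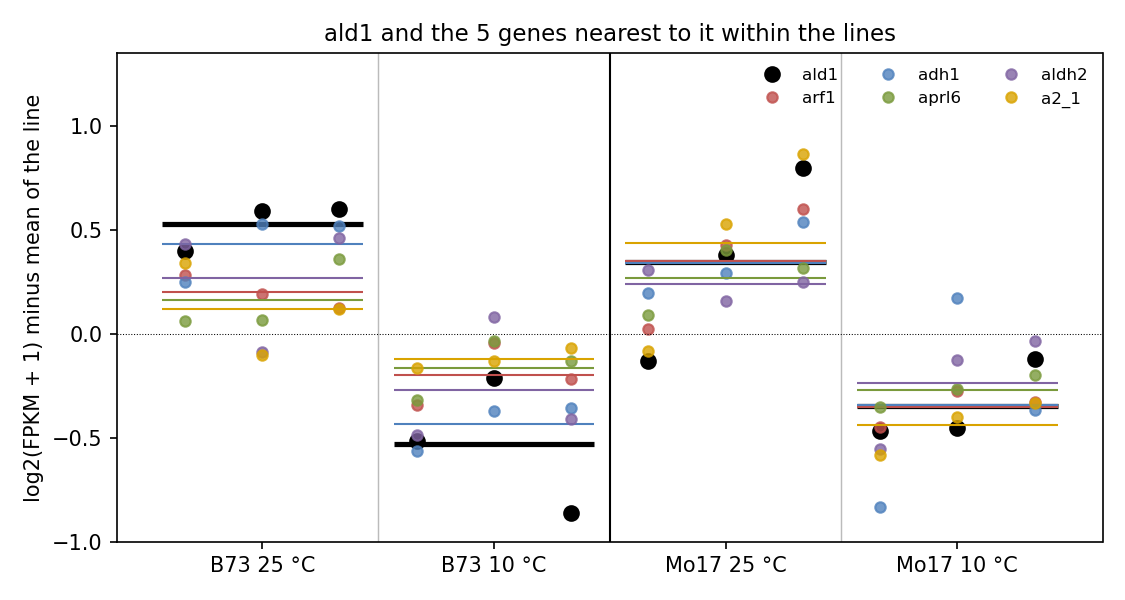
log2(FPKM + 1) minus the mean of the line (y axis) for ald1 and the 5 genes nearest to it within the lines, in the 3 libraries of each group in the order of replicate number (x axis); horizontal lines are group means. All 6 genes have lower means at 10 °C in both lines, ald1 has the widest separation in B73, and in Mo17 at 25 °C replicate 1 of ald1 and a2_1 lies below the line mean.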

How the data were processed

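Per the file headers, the deposited table gives every gene's count and FPKM per library, as made by the authors. Tools listed in the submitters' processing notes, without role or order, are StringTie 1.3.4d, HISAT2 2.0.4, cutadapt 1.9, DESeq2 and edgeR, and the build is B73 RefGen_v4. The sources used here do not say whether counting used the strand. No deposited count is 1 or 2 and the smallest above 0 is 3, so a fragment appears to be worth several counts, and no counting intervals are given.

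edgeR 4.0.16 (R 4.3.3) quasi-likelihood tests used the counts as deposited. Library sizes were set by relative depth (count over FPKM in 48 genes whose FPKM reached 5 in every library), without further factors. 1 model of 4 group means covered 12 libraries and the 76 of 99 genes that reached an FPKM of 1 in 3 or more libraries. Tests were 2-sided, with Benjamini-Hochberg adjustment over the 76 genes and a threshold of 0.05. Standard errors were derived from the log2 difference and its F statistic. Normalized counts are counts over relative depth. p-values set differences against the spread between biological replicates. The procedure was tested on counts simulated with the relative depths that the fit was given, which cannot probe the choice of scaling.

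The rule for named genes took ald1, the genes of the lists around its pathways, and the 5 genes nearest in pattern over all libraries and within lines; others were named after their values were seen. The gene and the lists were chosen with earlier results of these data known. Alternatives were other scalings, filters and pseudocounts, limma 3.58.1, DESeq2 1.42.0, no variance trend, fits of 6 libraries, a replicate block and each library left out. Sequences were not used here.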

Additional observations from a re-analysis of the deposited data

How the results depend on the processing

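The ald1 line differences averaged over temperatures and at 10 °C kept their direction and their call under all alternatives run, the averaged one falling from 0.95 to 0.33 under quantile normalization. The ald1 line difference at 25 °C turned to -0.0376 under quantile normalization. With upper-quartile factors it was 0.42, past no threshold (adjusted p = 0.0552, edgeR). Quantile normalization gives equal ranks equal values, but the cause was not tested for either change. With upper-quartile factors the ald1 cold change in Mo17 was -0.40 instead of -0.74, and under quantile normalization the difference between the lines in the cold change was 0.73 instead of 0.31 (0.59 with upper-quartile factors); the cause was not tested. With each library left out in turn, the line difference ran from 0.55 to 1.01 at 25 °C, from 0.96 to 1.28 at 10 °C and from 0.83 to 1.06 averaged, called in 12 of 12 fits each. The cold change ran from -1.22 to -0.89 in B73 and from -0.94 to -0.48 in Mo17, and its difference between the lines from 0.10 to 0.56. The number of genes called between the lines ran from 42 to 51 at 25 °C and from 35 to 53 at 10 °C, beside 47 and 49 as reported. These 47 were 28 higher and 19 lower in Mo17, but 26 and 27 with TMM factors, 22 and 30 with upper-quartile factors and 18 and 23 with quantile normalization. The 49 were 28 and 21, but 22 and 32 with TMM factors. The 21 lower calls became 13 without B73 10 °C replicate 2, 10 without its replicate 3, 12 without Mo17 10 °C replicate 1 or 3, and 13 in a fit of 6 libraries.

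Whether the replicate numbers pair the samples is not settled. Same-numbered libraries correlated above 0.1 in 4 of 18 pairs of libraries (Pearson r of deviations from group means, -0.43 to 0.44). With 3 replicates whose deviations sum to 0 in each group, this check cannot exclude pairing. With the replicate block the ald1 line difference was 0.78 at 25 °C and 1.09 at 10 °C, with no change of call, and 46 and 43 genes were called. What absolute depth limits cannot be said, since a count is not known to be 1 fragment.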
